A study of Drosophila melanogaster with 2 samples.

Results

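Merged binding regions that hold several summits were described for woc (without children) in wandering larvae of Drosophila melanogaster, taken whole near the end of the third instar, before pupation. The regions were selected on the authors' pooled, thresholded peak list: intervals overlapping by 1 bp or more were joined, and a joined region with 2 or more distinct summits became a member. Of 5607 merged regions, 985 were members (17.6%, exact 95% interval 16.6 to 18.6), and the other 4622 held a single summit. Of the members, 964 had 2 summits, 20 had 3 and 1 had 4. Since summits chose the members, their number, spacing, width and signal are descriptions and carry no test. All flies came from 1 transgenic line in which woc carries eGFP at its C-terminal end, and chromatin was sonicated and recovered with an anti-GFP antibody. The 2 libraries, numbered 1 and 3 as biological replicates, formed 1 group; each came from its own biosample, with both sexes pooled; no untagged flies and no second condition were analysed here. Read totals were not used, so depth is unknown, and every interval below covers counting error over regions only. Whether the summits of a member were bound in the same cells of these whole larvae cannot be told apart from binding in different cells.

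woc is a zinc finger protein that is found with the heterochromatin protein 1 variant HP1c and the zinc finger protein row at many promoters of active genes in euchromatin. Mutants of the gene are short of ecdysone, the steroid hormone whose rise at the end of larval life starts metamorphosis. In a ChIP-seq peak list a summit is the base at which a caller places the top of the enrichment, so that a region with several summits can hold neighbouring sites or a broad site split by the caller.

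The first 4 members are shown because each lies between a pair of divergent genes and holds a summit upstream of each gene. They are written on the plus strand of build dm6, 5′ to 3′, trimmed to leave out annotated untranslated and coding exons, and capitals mark the letters of any of the 10 motifs listed further on. The window between yem (the histone H3.3 chaperone subunit yemanuclein) and Ctl2 (a choline transporter-like protein) was chr3R:29122984-29123282, with summits at bases 22 and 278. Between Alh (the Drosophila AF10 protein) and CG10098 the window was chr3R:7124204-7124503, with summits at bases 14 and 287. Between MTA1-like and Sec23 (a subunit of the COPII vesicle coat) it was chr3R:5648765-5649064, with summits at bases 17 and 284. Between Got2 (a mitochondrial aspartate aminotransferase) and Npc2a (a sterol-binding protein) it was chr2L:1987830-1988129, with summits at bases 6 and 295. Matches to CGATA lay within 50 bases of the first summit in the Alh and MTA1-like windows, whereas no motif of the 10 was in the yem or the Got2 window.
yem/Ctl2: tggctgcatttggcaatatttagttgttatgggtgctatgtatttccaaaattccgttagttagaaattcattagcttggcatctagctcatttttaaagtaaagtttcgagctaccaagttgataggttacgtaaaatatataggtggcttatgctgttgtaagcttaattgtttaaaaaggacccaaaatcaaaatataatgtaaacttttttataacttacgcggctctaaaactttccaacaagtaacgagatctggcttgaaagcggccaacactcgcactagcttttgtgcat
Alh/CG10098: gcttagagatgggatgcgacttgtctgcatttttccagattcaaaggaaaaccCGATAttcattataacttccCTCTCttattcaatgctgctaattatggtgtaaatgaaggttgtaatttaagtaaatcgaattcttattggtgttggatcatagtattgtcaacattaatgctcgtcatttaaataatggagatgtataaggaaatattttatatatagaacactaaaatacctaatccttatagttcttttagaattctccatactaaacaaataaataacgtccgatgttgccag
MTA1-like/Sec23: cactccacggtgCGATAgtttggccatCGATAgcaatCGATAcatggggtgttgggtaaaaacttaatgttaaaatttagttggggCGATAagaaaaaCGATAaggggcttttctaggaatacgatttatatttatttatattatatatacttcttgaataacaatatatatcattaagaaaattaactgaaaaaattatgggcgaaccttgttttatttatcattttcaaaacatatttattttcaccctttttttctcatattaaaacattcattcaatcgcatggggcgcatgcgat
Got2/Npc2a: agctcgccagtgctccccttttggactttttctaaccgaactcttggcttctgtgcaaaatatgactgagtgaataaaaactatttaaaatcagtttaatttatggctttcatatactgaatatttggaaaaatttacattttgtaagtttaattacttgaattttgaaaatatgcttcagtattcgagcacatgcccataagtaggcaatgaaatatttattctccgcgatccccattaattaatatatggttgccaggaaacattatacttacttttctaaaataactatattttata

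The next 3 members, of high signal and away from promoters, are shown for contrast, because they carry the commoner arrangement of 2 summits about 200 bp apart. The gpp window, in an intron of the gene for the histone H3 lysine 79 methyltransferase Dot1, was chr3R:6424082-6424361, with summits at bases 41 and 240. The CG4004 window was intergenic (chrX:12752322-12752603), with summits at bases 41 and 242, and the CG9663 window was intronic (chr2L:3302146-3302434), with summits at bases 41 and 249. In each of these windows the first summit was the higher. The only motif match within 50 bases of a lower summit was the CA repeat of the gpp window.
gpp: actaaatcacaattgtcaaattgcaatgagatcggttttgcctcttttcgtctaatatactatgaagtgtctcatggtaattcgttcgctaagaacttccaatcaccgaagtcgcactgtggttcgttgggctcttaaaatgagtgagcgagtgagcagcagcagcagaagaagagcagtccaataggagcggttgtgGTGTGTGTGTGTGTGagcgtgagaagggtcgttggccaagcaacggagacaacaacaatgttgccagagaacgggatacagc
CG4004: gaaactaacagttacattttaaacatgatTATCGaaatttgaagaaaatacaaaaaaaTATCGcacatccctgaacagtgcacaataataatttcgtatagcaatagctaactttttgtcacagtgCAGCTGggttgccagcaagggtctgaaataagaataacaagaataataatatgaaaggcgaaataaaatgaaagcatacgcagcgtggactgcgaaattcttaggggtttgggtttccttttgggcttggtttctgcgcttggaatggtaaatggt
CG9663: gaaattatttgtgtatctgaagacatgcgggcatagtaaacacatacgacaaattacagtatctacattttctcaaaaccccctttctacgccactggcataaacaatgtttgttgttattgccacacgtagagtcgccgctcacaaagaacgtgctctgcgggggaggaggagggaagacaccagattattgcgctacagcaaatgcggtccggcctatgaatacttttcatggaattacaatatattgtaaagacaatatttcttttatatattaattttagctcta

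The distance between neighbouring summits had a sharp lower edge. No pair of the 1007 neighbouring summits in the members was closer than 199 bp, 107 pairs were exactly 199 bp apart, and 70.5% lay between 199 and 210 bp; the median was 204 bp and the highest 900 bp. The same lower edge of 199 bp held in the relaxed pooled list and in each library's own relaxed list, where no pair of summits on an arm was closer either. The commonest interval width was also fixed: 3692 of the 6614 thresholded intervals on the arms were 510 bp wide, 46.7% of those in members and 59.7% of those in single-summit regions. Members were therefore split at a spacing of 250 bp, a bound chosen after the spacings were seen. By their smallest spacing, 878 members were close-spaced (89.1%) and 107 were wide-spaced.

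**Figure D1:**
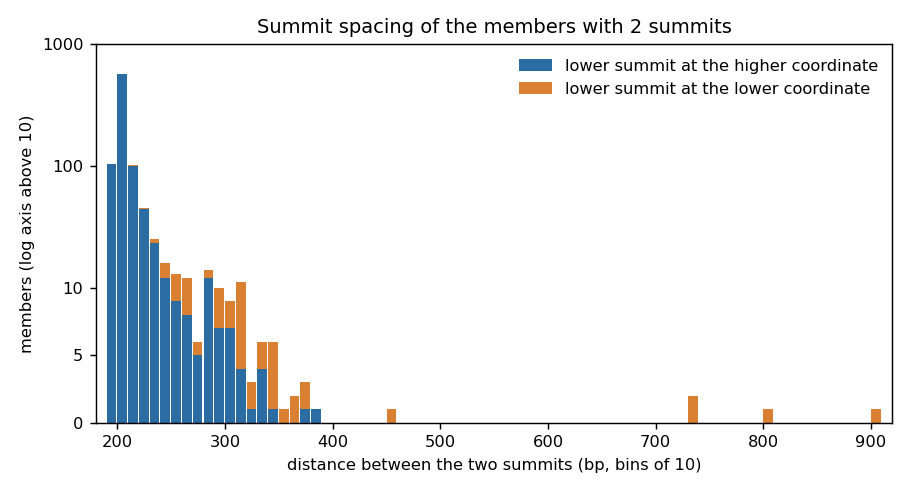
Distance between the summits of the 964 members with 2 summits, in bins of 10 bp; blue bars count members whose lower summit has the higher genome coordinate and orange bars the opposite, and the vertical axis is logarithmic above 10. Most members sit just above 199 bp and are blue, and orange bars become common above 300 bp.

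The lower summit of a close pair lay almost always on the same side along the genome coordinate. Among members with 2 summits 199 to 210 bp apart, the lower summit had the higher coordinate in 690 of 692 (99.7%, 98.96 to 99.96). The share was 97.8% of 92 members up to 220 bp, 91.0% of 78 up to 250 bp and 75.9% of 58 up to 300 bp. Above 300 bp it was 36.4% of 44 members (22.4 to 52.2), an interval that includes 50%. Each library's own list, cut to as many peaks as the pooled list, had the same order. At 199 to 210 bp the share was 99.2% of 779 regions in replicate 1 and 98.9% of 659 in replicate 3. Above 300 bp it was 54.3% of 70 and 42.4% of 33. The lower summit of a close pair also had less signal relative to its partner, with a median ratio of 0.557 at 199 to 210 bp against 0.767 above 300 bp. Each summit had to pass the threshold of the list, whose lowest signal was 99.6, so weaker members could not have ratios as low. The highest summit had a median signal of 321 in close-spaced and 197 in wide-spaced members. The lowest summit had medians of 154 and 146. Whether the ratios differ beyond this limit was not tested.

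**Figure D2:**
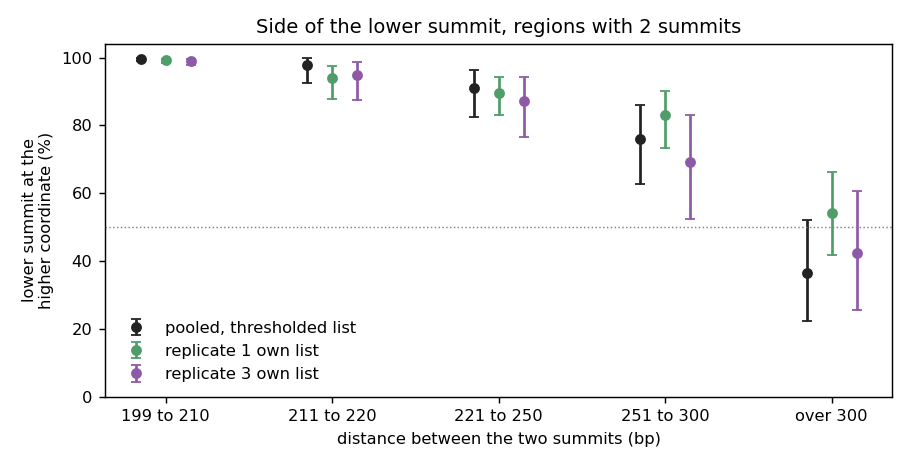
Percentage of regions with 2 summits whose lower summit has the higher genome coordinate, by summit distance in bp, in the pooled thresholded list and in each library's own list; bars are exact 95% intervals and the dotted line marks 50%. The points fall from nearly 100% at 199 to 210 bp to values whose intervals include 50% above 300 bp in all 3 lists.

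This side followed the coordinate and not the direction of the gene. Among close-spaced members with 2 summits that reached the start sites of a single gene, the lower summit lay downstream of the higher one at all 105 genes on the plus strand and upstream of it at all 174 genes on the minus strand. In wide-spaced members the lower summit was the upstream one at 4 of 14 plus-strand genes and at 13 of 18 minus-strand genes. Minus-strand genes made up 62.4% (56.4 to 68.1) of these close-spaced members and 51.8% (49.1 to 54.5) of single-summit regions reaching a single gene. A second summit at the higher coordinate was also common outside the members. In the relaxed pooled list, 37.4% of the highest summits of single-summit regions had another summit 199 to 250 bp away at higher coordinates and 0.974% had one at lower coordinates. The part that peak calling plays in these close pairs was not tested, and results below are given separately for close-spaced and wide-spaced members.

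A summit of a member was matched where a library's own relaxed list had a summit within 100 bp. The pooled list was made from the same 2 libraries. Matches and a shared order of summits were therefore close to fixed in advance and are descriptions, not independent support. Every summit was matched in both libraries in 64.1% of members (61.0 to 67.1), against 88.0% of single-summit regions, which have fewer summits to match. The share was 73.2% in replicate 1 and 88.6% in replicate 3, and 22 members (2.23%) had all summits matched in neither. Both libraries matched 65.3% of close-spaced members and 54.2% of wide-spaced members (44.3 to 63.9) within 100 bp, and 68.6% and 69.2% within 200 bp. In replicate 1, 76.65% of close-spaced members matched within 200 bp, fewer than distance to the nearest library summit alone would give. The 200 bp shares therefore rest on a further matching condition that is not described here. Of 627 members with 2 summits that could be ranked in both libraries, 594 (94.7%) had the same highest summit in replicate 1, in replicate 3 and in the pool. That share was 97.2% of 570 close-spaced members and 70.2% of 57 wide-spaced members, whose summits were closer in signal. In close-spaced members the order also repeats the coordinate side described above, which each library's own list shared. The libraries' own lists were also cut to the length of the pooled list. They held a multi-summit region at 61.7% of members in replicate 1 and 66.4% in replicate 3. Of members, 39.9% had one in both and 11.8% in neither. For single-summit regions the shares were 13.3% in replicate 1, 5.58% in replicate 3, 1.21% in both and 82.35% in neither.

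The strongest close-spaced member lay upstream of Sox14, an HMG-box transcription factor induced by ecdysone that is needed at metamorphosis (chr2R:23978215-23978861). Its highest summit, at position -267 relative to the start site, had a signal of 1803 in the pool, 478 in replicate 1 and 1359 in replicate 3. The second summit, 202 bp closer to the gene, had 547, 56.2 and 243.5. In the gpp intron the highest summit had 1431 in the pool, 413 in replicate 1 and 1021 in replicate 3, and the summit 199 bp away had 169.5, 149.7 and 32.6. The lower summit was thus the weaker in each library, though the gap between the summits was far larger in replicate 3 than in replicate 1 at gpp. Upstream of hid, an activator of cell death in larval tissues at metamorphosis (chr3L:18185668-18186319), the highest summit had 1311, 395 and 941. The summit 229 bp further upstream had 348, 166 and 220.6.

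Other leading close-spaced members lay away from promoters, most of them within gene bodies. An intron shared by Su(Tpl), the Drosophila ELL elongation factor, and Mi-2, a chromatin remodeller, held a summit of 1285 in the pool, 317 in replicate 1 and 969 in replicate 3, with a lower one of 147, 68.2 and 231. In an intron of wit, a type II receptor of the BMP pathway, the values were 1281, 308 and 978, and 537, 225 and 364 at the summit 202 bp away. These 2 members kept the same highest summit in every list. An intron shared by Hyls1 and chif, the Drosophila Dbf4-like kinase subunit, had 1220, 362 and 861 with a lower summit of 366, 135 and 154. The CG4004 and CG9663 members whose sequences are given above had 1401 and 1330 in the pool, 402 and 287 in replicate 1, and 1011 and 1016 in replicate 3.

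**Figure D3:**
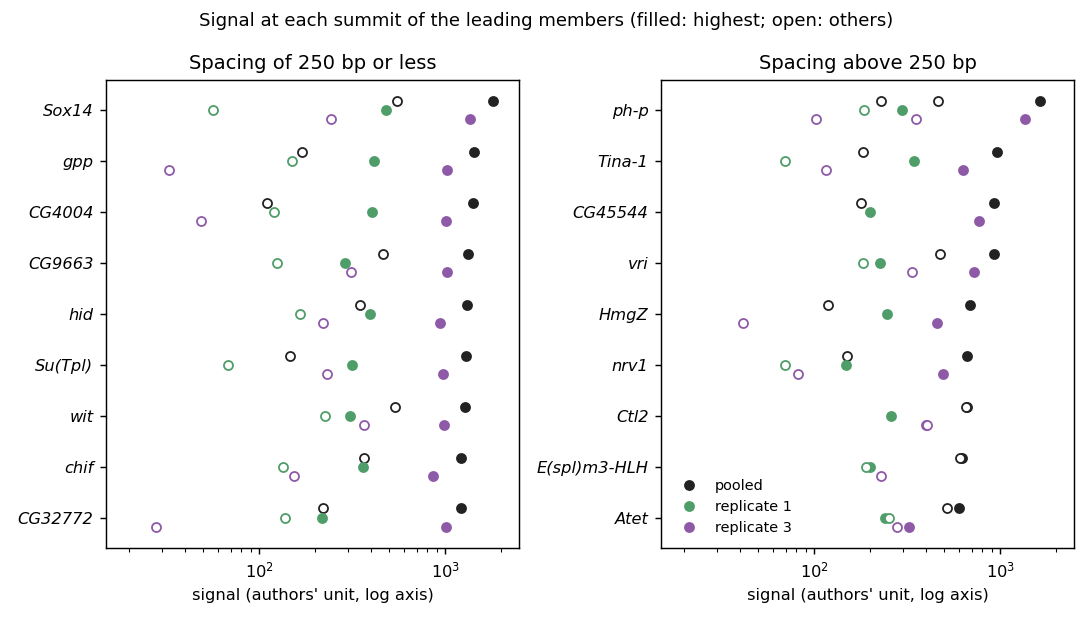
Signal at every summit of the 9 leading close-spaced members (left) and the 9 leading wide-spaced members (right), on a logarithmic axis in the authors' unit; filled circles are the highest summit, open circles the others, and colours give the pooled list and each library. A missing circle means that no library summit lay within 100 bp. Open circles lie left of the filled circle of the same colour in each of the 9 close-spaced members drawn, whereas at Atet, Ctl2 and E(spl)m3-HLH on the right the circles nearly coincide.

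Among wide-spaced members, a set named after its values were seen, ph-p, which encodes a subunit of Polycomb repressive complex 1, held the highest signal and 3 summits in 1 interval (chrX:2137051-2138271). Its highest summit lay within the body of ph-p, at position -491 from the nearest of the gene's start sites. The signal there was 1637 in the pool, 297.5 in replicate 1 and 1348 in replicate 3. The last summit along the genome, 304 bp beyond the middle one, had 460, 185 and 352, and the middle one had 229 in the pool and 102 in replicate 3, with no match in replicate 1. At E(spl)m3-HLH, a Notch-responsive repressor gene (chr3R:26021010-26021772), the summits were 267 bp apart with 620 and 607 in the pool and 199 and 190 in replicate 1. Replicate 3 had a match for the second summit alone, at 228.5. Upstream of Atet, an ABC transporter gene (chr2L:4332967-4333901), the summits at positions -490 and -212 had 597 and 519 in the pool, 241 and 252.5 in replicate 1, and 324 and 278 in replicate 3. Thus at Atet replicate 1 ranked the summits the other way from the pool and replicate 3.

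Some wide-spaced members lay far from start sites. In an intron of vri, a bZIP repressor of the circadian clock (chr2L:5292496-5293640), summits 730 bp apart had 918 and 475.5 in the pool, 224 and 182 in replicate 1, and 724 and 333 in replicate 3. The widest member, intergenic at chr3L:18193763-18195375 with CG7320 as the nearest gene, was 1613 bp wide. Its summits, 806 bp apart, had 541 and 363 in the pool, 165 and 114.7 in replicate 1, and 403 and 247.5 in replicate 3. The largest spacing, 900 bp, separated a summit of 558 near muc, a subunit gene of pyruvate dehydrogenase, from a summit of 314 in the 3′ untranslated region of chm, a histone acetyltransferase gene. In these 3 members both libraries matched both summits and kept their order.

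Regions that reached more than 1 gene mostly reached genes on both strands, in 182 of 191 members and 598 of 633 single-summit regions. Start sites of 2 or more protein-coding genes lay within 500 bp of a summit in 19.4% of members (16.97 to 22.0) and in 13.7% of single-summit regions (12.7 to 14.7). Members have more summits with which to reach a gene, and with the highest summit alone the share was 17.8% (15.4 to 20.3). Among the 20% of regions with the highest signal the order was the opposite, with 18.7% of members and 25.7% of single-summit regions, and when the list was cut to its strongest 50% the difference was 1.87 percentage points. The share over all summits was 18.6% in close-spaced and 26.2% (18.15 to 35.55) in wide-spaced members. With the highest summit alone it was 17.5% (15.1 to 20.2) and 19.6% (12.6 to 28.4). Of the 27 wide-spaced members with 2 summits that reached 2 or more genes, 21 had each summit nearest a different gene. All 21 pairs were divergent, as were 107 of 108 such pairs in close-spaced members. In 20 of the 21 both summits lay between the start sites, each upstream of its own gene. The higher summit was at the higher coordinate in 11 of the 21, unlike the close-spaced divergent pairs, where this was so in 2 of 107.

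The divergent pairs, named after their values were seen, joined genes of varied roles. Between yem and Ctl2 the summits, at positions -126 and -109 from their genes, had signals of 650 and 658 in the pool and 405 and 400 in replicate 3; in replicate 1 the Ctl2 summit had 258.5 and the yem summit no match. Between Alh and CG10098 they had 390 and 144 in the pool, 136 and 53.6 in replicate 1, and 250.6 and 92.2 in replicate 3. Between Got2 and Npc2a they had 237 and 168 in the pool, 105 and 93.7 in replicate 1, and 140 and 67.6 in replicate 3. Both libraries thus ranked the Alh and Got2 summits as the pool did. Between MTA1-like and Sec23 the summits had 191 and 244 in the pool and 84.95 and 84.2 in replicate 1, close to equal and in the other order. Replicate 3 had 154 at the Sec23 summit and no match for the MTA1-like summit. Other such pairs were SAK and Cdk12 (a centriole kinase and a transcription kinase, 197 and 188 in the pool), RpS6 and bys (a ribosomal protein and a ribosome assembly factor, 226 and 213), and CG6659 and fu, a Hedgehog pathway kinase (172 and 201). The start sites of the 21 pairs were 327 to 830 bp apart, with a median of 496 bp, against 346 bp in the 107 close-spaced divergent pairs and 295 bp in 561 divergent pairs at single-summit regions. A spacing above 250 bp with each summit near its own gene itself demands distant start sites, so this order is a description.

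**Figure D4:**
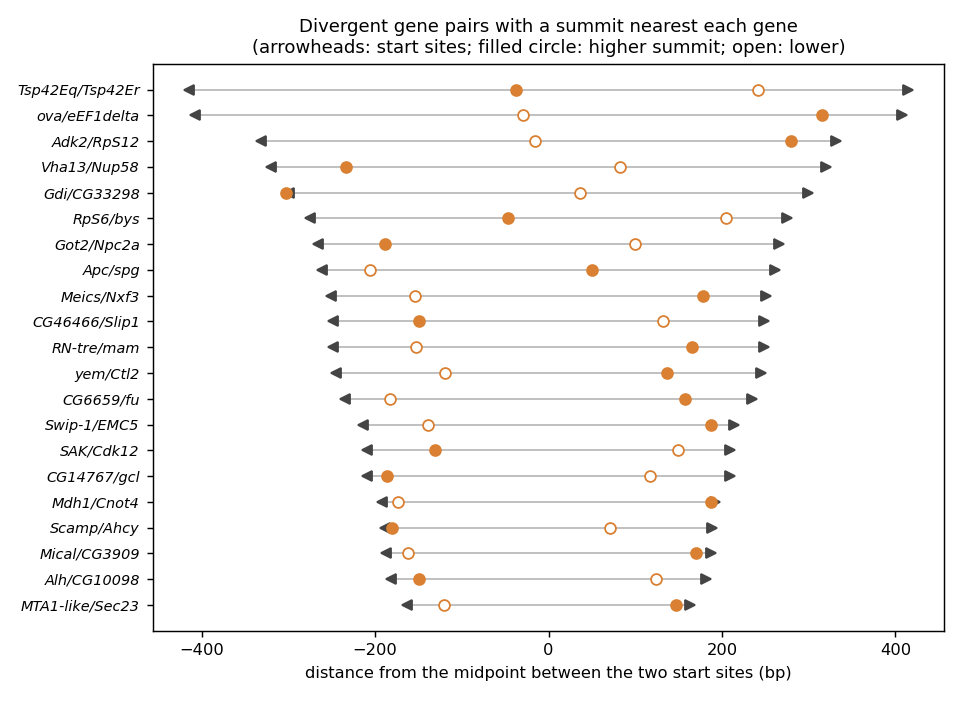
Positions of both summits in the 21 wide-spaced members between divergent genes, as distance in bp from the midpoint of the start sites; arrowheads are start sites, filled circles the higher and open circles the lower summit. Summits sit inside the start sites in every pair but Gdi/CG33298, and filled circles occur on both sides, 11 of 21 on the right.

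Promoter shares were higher in members than in single-summit regions over all regions, and in the opposite order among the strongest. The highest summit lay within 500 bp of a start site in 48.7% of members (45.6 to 51.9), against 42.6% of single-summit regions (41.1 to 44.0), a difference of 6.17 percentage points (2.74 to 9.61). Introns held 34.4% against 36.4%, and intergenic sequence 16.0% against 19.6%. Members were also stronger: their highest summit had a median signal of 309 against 174, and they made up 2.85% of the 20% of regions with the lowest signal and 35.7% of the 20% with the highest. Each summit of a member had to pass the threshold of the list, whose lowest signal was 99.6. When regions were cut into 5 equal classes of signal, the promoter shares in the 3 lowest classes for members and single-summit regions were 43.8% and 34.0%, 38.6% and 35.4%, and 48.4% and 44.1%. Within the highest class the promoter share was 51.9% of members (46.9 to 56.9) and 57.0% of 721 single-summit regions (53.3 to 60.6), the opposite order, with intervals that overlap. In the class below it the shares were 48.7% and 48.1%. The order also depended on the window, since with 250 bp in place of 500 bp the shares were 35.1% of members and 35.2% of single-summit regions. Wide-spaced members had 54.2% of highest summits at promoters (44.3 to 63.9) and close-spaced members 48.1% (44.7 to 51.4).

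**Figure D5:**
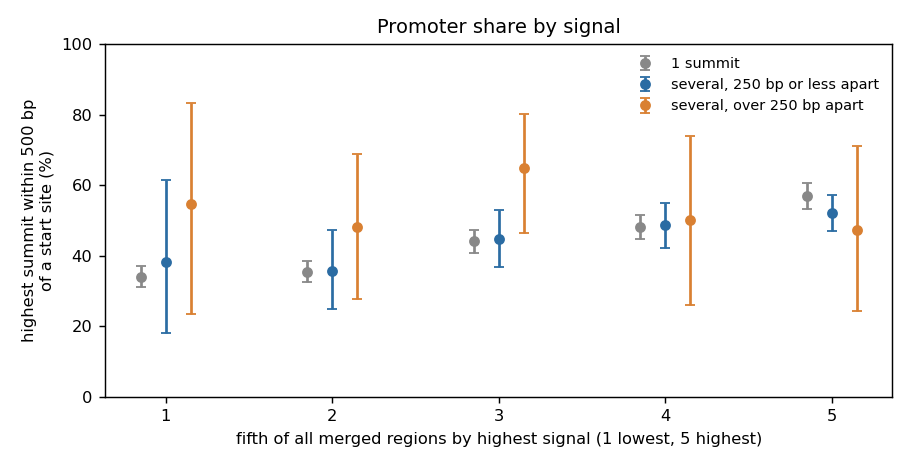
Percentage of regions whose highest summit lies within 500 bp of a start site, by 5 equal classes of signal over all merged regions, for single-summit regions, close-spaced members and wide-spaced members; bars are exact 95% intervals. Promoter shares rise with signal in single-summit regions from 34.0% to 57.0%, and the intervals of the 3 kinds overlap within every class.

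Positions of summits were taken at promoters of a single gene. A single-summit region entered only with its summit within 500 bp of the start site, whereas a member entered with any summit that near, so that its other summits could lie beyond, and the medians of the 2 kinds are not compared. In close-spaced members the highest summit had a median position of -183 and the other summit of -265 (n = 279). In wide-spaced members the medians were -255.5 and -371.5 (n = 32). Single-summit regions had medians of -104 at plus-strand and -109 at minus-strand genes. Because the side of the lower summit followed the coordinate, these medians differed by strand in close-spaced members: -290 and -86 at plus-strand genes, and -139.5 and -347.5 at minus-strand genes. The start site lay between the summits in 11.8% of close-spaced members and in 5 of 32 wide-spaced members.

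Start sites of 695 of 13945 protein-coding genes lay within 500 bp of a summit of a member, 4.98% of all genes, whereas 2437 genes, 17.5%, lay that near a summit of a single-summit region. Of the 3058 genes near any summit, 22.7% were near a summit of a member, and 74 genes were near both kinds. Of 22 ecdysone response genes, 7 were at members and 4 at single-summit regions alone; the 11 bound genes thus had 63.6% at members beside 22.7% of all bound genes. None of 16 insulator and architectural protein genes was at a member, though 12 were at single-summit regions. Heat shock genes had 0 of 13 at members and 6 at single-summit regions. Lists were chosen with earlier results known and are small, and nothing particular to a list is drawn from these counts. Of 85 cytoplasmic ribosomal protein genes 8 were at members (9.41%), and of 73 mitochondrial ones 7 (9.59%). As shares of the bound genes of these lists, they were 16.3% (8 of 49) and 7 of 35, beside the 22.7% of all bound genes.

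Among ecdysone response genes, Ldh, the lactate dehydrogenase gene also known as ImpL3 (chr3L:6262636-6263120), had a highest summit of 683.5 in the pool, 225 in replicate 1 and 464 in replicate 3. Its lower summit, further upstream, had 154, 126 and 128.1. At usp, which encodes the partner of the ecdysone receptor and shares its member with CG4313, the values were 357, 92.8 and 260, with 156, 40.02 and 109.8 at the lower summit. The transporter gene E23 had 351, 97.0 and 257, with 209, 44.4 and 139 at the lower summit. In these 3 genes the same summit was the higher in both libraries. The nuclear receptor gene Hr3 shared its member with Hdc (312 in the pool, 113 in replicate 1, 201 in replicate 3). At Eip75B, another nuclear receptor gene, the pool had 210 and 197, replicate 3 had 130.5 and 120, and replicate 1 matched the second summit alone, at 92.2. ImpE2 was wide-spaced, with summits 284 bp apart of 123 and 99.6 in the pool, 57.7 and 62.8 in replicate 3, and 62.2 at the first of these in replicate 1, which did not match the other.

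In the woc complex list 1 of 8 genes was at a member: row, whose protein is found with woc, had summits of 546.5 and 371 in the pool, 205.5 and 140 in replicate 1, and 350 and 219 in replicate 3, at positions -59 and -267. The signalling list had 2 of 29 genes at members, the Ets repressor gene aop (463 in the pool) and the Hippo pathway coactivator gene yki (250.4, in a member shared with Gpat4). The Polycomb list had ph-p and pho, a gene for a DNA-binding recruiter of Polycomb complexes, with 320 and 246 in the pool, 143 and 105 in replicate 1, and 172 and 138 in replicate 3. Of 13 immediate early and stress genes, 3 were at members: Xbp1 of the unfolded protein response (417.5), the Fos gene kay (281, with 3 summits) and the JNK phosphatase gene puc (204.5). The Polycomb list had 16 genes in all. Over all genes the share at members was 4.98%, and over bound genes 22.7%. Of the bound genes in these lists, members held 1 of 4 (woc complex), 2 of 10 (signalling), 2 of 6 (Polycomb) and 3 of 9 (stress).

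The 10 motifs were searched on both strands within 100 bp of each summit, and motif shares at highest summits were close in members and single-summit regions. CGATA, the core recognised by BEAF-32, was at 29.95% of members and 29.8% of single-summit regions; it is contained in TATCGATA, the DREF element, found at 3.25% and 3.81%. In windows of the same length at the start sites of all 13945 protein-coding genes, reaching from 150 bp upstream to 50 bp downstream, the shares were 39.4% and 8.22%. At 1000 bp to each side of the highest summit, CGATA was in 23.5% for close-spaced members, 23.4% for wide-spaced members and 22.7% for single-summit regions. In these flanks TATCGATA was in 0.683%, 0.467% and 0.541%. Where the highest summit lay at a promoter, CGATA was at 38.8% of members and 41.5% of single-summit regions, and TATCGATA at 6.25% and 8.19%. The core of promoter motif 1 was searched as GGTCACAC (7.03% of all such start site windows). The first E-box was CAGCTG (14.2% of those windows) and the other E-box was CACGTG (3.00%). GAGA factor was represented by GAGAG (22.7%), and the family of GATA factors by AGATAAG (3.25%). For nuclear receptors the letters were AGGTCA (3.59%), for CA repeats they were CACACAC (5.07%), and for factors of the KLF type GGGCGTG (0.853%). At highest summits of members and single-summit regions GGTCACAC was at 2.13% and 2.64%, CAGCTG at 8.02% and 8.81%, and GAGAG at 23.8% and 24.3%. AGATAAG was at 2.54% and 2.94%, AGGTCA at 3.96% and 3.53%, CACACAC at 5.58% and 6.27%, and GGGCGTG at 0.711% and 0.714%. For highest summits at promoters, GGTCACAC was at 3.75% and 5.44% and CAGCTG at 11.25% and 12.7%. In the flanks 1000 bp away, GGTCACAC was in 0.740% for close-spaced members and 0.595% for single-summit regions. In the same order, CAGCTG was in 8.66% and 8.91%, GAGAG in 22.5% and 23.1%, and AGATAAG in 3.30% and 2.70%. AGGTCA was in 5.18% and 4.94%, CACACAC in 6.38% and 7.59%, and GGGCGTG in 2.85% and 2.42%. Of the 10 motifs, CACGTG differed most between highest summits of members and single-summit regions (2.74% against 1.67%), and every other one differed by less than 1 percentage point. The CACGTG intervals overlapped (1.81 to 3.96 and 1.32 to 2.08). Windows 1000 bp to each side held CACGTG in 2.51% for close-spaced members, 2.80% for wide-spaced members and 2.16% for single-summit regions. TATCGATA was at 7.48% of highest summits of wide-spaced members (8 of 107) and at 2.73% of those of close-spaced members, with intervals that overlap (3.28 to 14.2 and 1.76 to 4.04). It was at 2.68% of the other summits of wide-spaced members (3 of 112).

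Lower summits of close pairs differed in base composition from highest summits. CA repeats were at 10.4% of lower summits of close-spaced members and 5.24% of their highest summits, and GAGAG at 29.7% and 23.1%. A window 204 bp to the higher-coordinate side of the summit in single-summit regions had CA repeats in 10.6% and GAGAG in 29.0%, and the window on the lower-coordinate side had 10.2% and 27.2%. On the lower-coordinate side of the highest summit in close-spaced members, in most of them the side without the second summit, the shares were 13.4% and 35.0%. GC content averaged 35.8% at highest and 39.4% at lower summits of close-spaced members and 44.8% on their lower-coordinate side. It averaged 42.7% and 41.7% in the higher-coordinate and lower-coordinate windows of single-summit regions, and 38.4% at both kinds of summit of wide-spaced members. A match describes letters in a window and shows no binding site.

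Members had a median width of 630 bp (229 to 1613), against 510 bp (up to 1154) in single-summit regions, and covered 616409 of the 2555556 bp in all regions. In 817 members each summit had an interval of its own, and in 162 all summits lay in 1 interval. Just inside the rule, 16 members were joined by an overlap of 1 to 10 bp. Just outside it, 47 pairs of neighbouring regions lay 0 to 50 bp apart, with a median of 274 bp between their highest summits.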

How the data were processed

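ChIP-seq peak lists from 2 libraries of whole larvae were analysed. Per the text deposited with each library, relaxed lists were made for each library and for their pool, and the thresholded list was derived from them; a control alignment was used in peak calling. The caller, aligner and threshold were not given in the sources used here. Each deposited signal is the authors' value for that peak; how it was scaled between lists is not given, so ratios describe these lists only. The summit is the start of the interval plus the deposited summit offset, which the authors count from that start. Lists on dm3 and 22 mitochondrial peaks were not used.

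Intervals of the thresholded dm6 list were merged, and start sites within 500 bp were taken from Ensembl release 115, with dm6 sequence from RefSeq. Python 3.11.15, NumPy 2.4.6, pandas 2.3.3, SciPy 1.17.1 and matplotlib 3.10.9 were used. For each library's own list, the peaks of highest signal were taken, as many as in the pooled list. With 1 group there was no test between samples; exact Clopper-Pearson 95% intervals cover counting error over regions, and intervals of differences are normal approximations over regions. The merging and counting script was tested on simulated data. Named members were those with the most summits, highest signal, greatest width, largest and smallest spacing, no start site, or genes on opposite strands, and up to 5 per gene list; wide-spaced and divergent members were added. Members and lists were chosen with earlier results of these data known. Alternatives covered the peak threshold, merging, summit distance, start site window, width, signal, motif window, match distance and each library alone.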

Additional observations from a re-analysis of the deposited data

How the results depend on the processing

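Of 73 alternative values, 47 stayed, 22 moved and 4 reversed, and the cause was not tested. Staying meant within counting error for shares and differences, and within 1.5 times for counts of regions. For median width and spacing it meant within the standard deviation between the 2 libraries' own values. By that measure a median spacing of 203 or 205 bp counted as moved. With the 50% of peaks of highest signal, members numbered 364 (12.4% of regions), the median spacing was 203 bp, and the differences between members and single-summit regions were 0.435 percentage points for promoter summits, 0.788 for promoters at the highest summit and 1.87 for reaching 2 or more genes. Merging at 50% overlap gave a share of 13.6% and a spacing of 203 bp, and merging across gaps of 100 bp a share of 19.0%. From either library alone the share was 15.7% to 22.4%, the median width 605.5 to 718 bp, the spacing 204 to 205 bp and the promoter summit difference 2.18 to 3.63 points. A start site window of 250 bp gave -2.20 for promoter summits and -0.0527 for highest summits, and the shared width range gave 8.09 for promoter summits. Every summit was matched in both libraries in 46.4% of members within 50 bp and in 68.6% within 200 bp. Chosen after seeing the data, counting summits 250 bp or less apart as 1 left 123 members (2.19%) with a median width of 768 bp, a spacing of 305 bp and a 2-gene difference of 9.245 points. Also chosen after seeing the data, the 20% of regions with the highest signal gave -5.13 for promoters and -6.96 for 2 or more genes. With 50 bp motif windows each motif difference moved by less than its counting error. No paired analysis was possible because both libraries belong to 1 group. Depth is unknown, so how far it limits the second summits cannot be given.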

Other observations

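Multi-summit regions made up similar shares of the arms: 15.6% of regions on 2L (13.5 to 18.01), 18.5% on 2R, 17.4% on 3L, 17.4% on 3R and 19.2% on X (16.8 to 21.7). On chromosome 4 there were 8 among 57 regions (14.0%, 6.26 to 25.8), among them the members at RpS3A and pho.

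Chains of summits were rare, with 21 members of 3 or more. The only member with 4 summits lay in CG17754 (chrX:9251362-9252353), where signals in the pool fell along the genome through 225, 196, 121 and 107. Neither library matched all 4 summits: replicate 1 had 27.8 and 41.4 at the last 2 and no match for the others, and replicate 3 had 189, 163 and 67.85 with no match for the third. Adf1, a transcription factor gene, had 3 intronic summits of 1159, 613 and 137 in the pool, and the zinc finger gene chn had 808, 543 and 352. Replicate 3 gave 856.5 and 317 at the first summits of Adf1 with no match for the last, and 499, 323 and 190 at chn. Replicate 1 gave 332, 249 and 53.97 at Adf1, and 269 and 190 at the first summits of chn with no match for the last.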
